A study of Mus musculus with 4 samples.

Results

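The wide KDM5C peaks are the 631 regions, of 6916 on chromosomes 1 to 19 and X, that the authors' peak list for cells with an intact Kdm5c gene (WT) gives a width of at least 1000 bp. They were chosen by width alone, and the 6285 peaks under that limit, called narrow here, served as the comparison. The demethylase KDM5C (SMCX) removes methyl groups from di- and trimethylated lysine 4 of histone H3, a mark of active promoters. Most mammalian promoters lie in CpG islands, stretches in which the CpG dinucleotide has not been lost to deamination, and a CpG island can reach well past the transcription start site (TSS) into the first exon or across the promoters of divergent genes. Germ line genes with CpG island promoters are kept silent outside the germ line, in part by the PRC1.6 repressor complex, whose MGA-MAX and E2F6 subunits bind DNA.

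KDM5C occupancy was profiled by chromatin immunoprecipitation and sequencing (ChIP-Seq) in epiblast-like cells (EpiLCs) at day 2 of differentiation. They were made from male mouse embryonic stem cells whose only X chromosome carries a mutated Tsix allele (XΔTsixY). The strain of these stem cells, given here as C57BL/6J, is not settled. The study's methods name another background for its Tsix mutant mice and a mixed one for its floxed Kdm5c mice. The 4 samples were 1 immunoprecipitate with an anti-KDM5C antibody and 1 input for WT cells, and the same for Kdm5c knockout (KO) cells. The KO cells carry the same Tsix allele. The study describes the Kdm5c deletion of its mice as a loss of the exons for the demethylase domain that leaves a barely detectable mutant protein. Each genotype had 1 deposited peak list, and the study's methods give replicate lines behind the WT list and 1 sample behind the KO list. A list holds no read counts, so the depth, the deletion of Kdm5c and the identity of the cells could not be checked from it, and no value below has a replicate error or a test. Each share is given with an exact Clopper-Pearson 95% interval where it matters, and these intervals take peaks as independent and cover counting error only.

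The sequence under 5 of these peaks shows the kinds of region that were wide. The capitals mark CpG dinucleotides in 200 bp around the summit, the position of strongest signal, on the plus strand of mm9. The peak at Hdac2 (chr10:36693887-36694086 is the stretch shown) is a CpG-rich promoter of very high enrichment, the one at Cilp2 (chr8:72406212-72406411) lies in coding sequence, and so does the one at Tchh (chr3:93251372-93251571). The peak at AY036118 (chr17:39982835-39983034) was the widest of all. The peak at Gm10800 (chr2:98506942-98507141) stands for 10 wide peaks of low GC content. In the 200 bp, Cilp2 held 31 CpGs, AY036118 held 23, Hdac2 held 20 and Tchh held 11, whereas Gm10800 held 7.
Hdac2: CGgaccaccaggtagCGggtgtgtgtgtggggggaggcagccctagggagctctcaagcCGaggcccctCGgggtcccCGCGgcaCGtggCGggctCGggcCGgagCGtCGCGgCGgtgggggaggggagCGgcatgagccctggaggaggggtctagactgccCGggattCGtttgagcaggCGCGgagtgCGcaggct
Cilp2: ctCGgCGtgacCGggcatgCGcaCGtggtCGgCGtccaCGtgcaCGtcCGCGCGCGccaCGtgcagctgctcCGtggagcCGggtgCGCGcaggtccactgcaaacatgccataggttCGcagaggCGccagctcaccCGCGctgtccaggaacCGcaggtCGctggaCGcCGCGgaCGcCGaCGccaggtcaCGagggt
Tchh: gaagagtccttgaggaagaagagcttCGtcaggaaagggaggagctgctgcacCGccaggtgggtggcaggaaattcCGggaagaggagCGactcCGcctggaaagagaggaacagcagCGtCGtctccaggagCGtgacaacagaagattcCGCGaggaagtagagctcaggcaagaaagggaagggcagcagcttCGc
AY036118: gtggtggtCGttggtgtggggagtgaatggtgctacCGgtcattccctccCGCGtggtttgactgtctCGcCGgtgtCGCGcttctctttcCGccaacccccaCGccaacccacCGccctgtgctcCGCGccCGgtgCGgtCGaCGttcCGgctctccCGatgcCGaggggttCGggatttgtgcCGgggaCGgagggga
Gm10800: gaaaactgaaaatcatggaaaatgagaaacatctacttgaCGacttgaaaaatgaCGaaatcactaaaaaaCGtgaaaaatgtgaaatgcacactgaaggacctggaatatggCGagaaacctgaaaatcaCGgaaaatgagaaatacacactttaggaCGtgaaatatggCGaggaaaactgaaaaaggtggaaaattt

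Width, score and fold enrichment come from the same signal, so the following values describe how the peaks were chosen. The median width of wide peaks was 1169 bp (quartiles 1077 and 1306 bp) and that of narrow peaks was 499 bp. Only 16 wide peaks reached 2000 bp, and together the wide peaks covered 788443 bp, 19.09% of the bases in WT peaks. The fold enrichment of immunoprecipitate over input at the summit had a median of 5.57 in wide peaks and 3.62 in narrow peaks. The score, which is 10 times the −log10 of the q-value, had medians of 222 and 76. The peaks were also split into 4 score classes of similar size. Of the top class 23% were wide (399 of 1735), against 1.24% in the lowest class (21 of 1691). Within the wide peaks, however, width was nearly unrelated to fold enrichment (Spearman's rho 0.11 over 631 peaks), and 80 wide peaks scored below the median of all WT peaks. Just inside the limit lay the peaks at Rasgef1b and D16Ertd472e, each 1000 bp wide with fold enrichments of 4.06 and 5.57, and the peak at Ddx20, 1002 bp wide at 3.68. Just outside it lay 3 peaks of 999 bp, at Tram1 (6.45), at Zfp428 (9.46) and 8122 bp from the TSS of Irs1 (5.44).

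**Figure D1:**
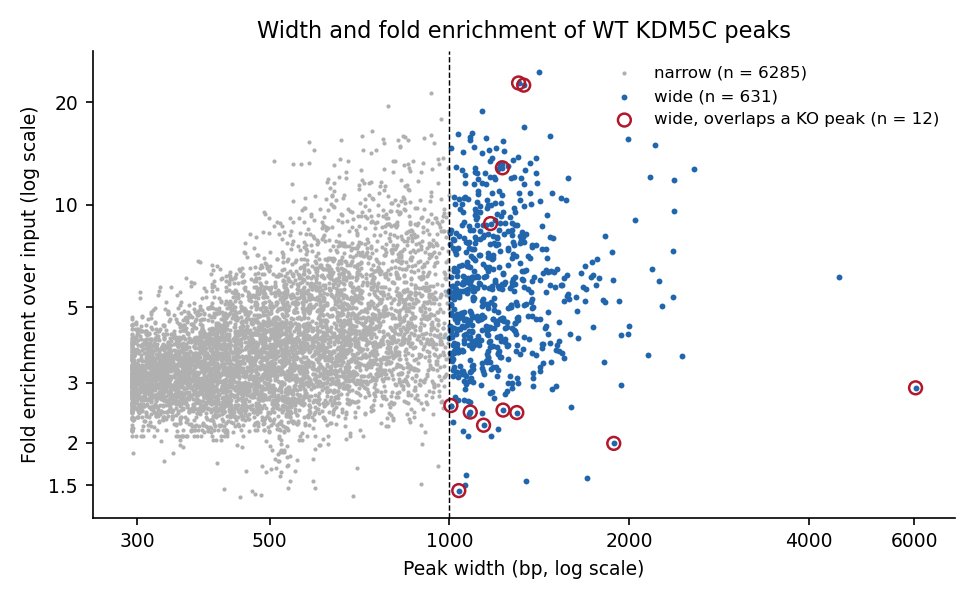
Each point is a WT peak, with its width in bp on the x axis and its fold enrichment over input on the y axis, both on log scales. Grey points are the 6285 narrow peaks, blue points the 631 wide peaks, the dashed line is the 1000 bp limit, and red circles mark the 12 wide peaks that overlap a KO peak. Narrow peaks of higher enrichment were wider, while the wide peaks spread from 1.45 to 24.6 in enrichment at widths that mostly stayed under 2000 bp.

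The widest peaks were of unlike kinds. The widest, 6035 bp at chr17:39979850-39985884, covered the start of AY036118, an annotated pseudogene that in RefSeq (assembly GRCm38.p6) neighbours a ribosomal RNA related sequence, Rn18s-rs5, and its fold enrichment was only 2.90. The next, 4497 bp at chr3:93247418-93251914, lay wholly inside 1 coding exon of Tchh, which encodes trichohyalin, a repetitive structural protein of hair follicles, and its fold enrichment was 6.15. A peak of 2570 bp (chr7:91030768-91033337) covered the starts of Mesdc1 and Mesdc2, the latter a chaperone of Wnt co-receptors, with a fold enrichment of 12.7. Promoter peaks followed at Zfp503 (2454 bp), Cpeb1 (2381 bp) and Tiam1 (2374 bp). Cpeb1 encodes a regulator of cytoplasmic polyadenylation and Tiam1 an activator of RAC signalling. The peak at Cilp2 measured 2372 bp in coding sequence, 5733 bp from the nearest TSS. The list of the 10 widest was completed by a peak over the starts of Tle1, a transcriptional co-repressor, and C630043F03Rik (2367 bp), one at the potassium channel gene Kcnn2 (2273 bp) and one at the noncoding 2410080I02Rik (2245 bp). Fold enrichment in these 10 peaks ran from 2.90 to 12.7.

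The highest enrichments were found at other, more compact promoters. The peak over the start of Gm10190 (chr17:80772130-80773540) had the highest fold enrichment of all WT peaks, 24.6 over 1411 bp. Igf2r, the receptor that clears IGF2, followed with 22.8 over 1306 bp, and Hdac2, a histone deacetylase, with 22.5 over 1332 bp. The remaining peaks of the highest 5 wide ones were those at 4930572J05Rik (18.8 over 1132 bp) and Capn10 (16.9 over 1333 bp).

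Wide peaks lay at promoters somewhat more often than narrow ones. The midpoint was within 1 kb of a TSS in 83.7% of wide peaks (528 of 631, interval 80.6 to 86.5%) and in 75.6% of narrow peaks (4750 of 6285, interval 74.5 to 76.6%). At the other end, 8.40% of wide peaks (53) and 15.4% of narrow peaks (969) lay farther than 5 kb from any TSS. Narrow peaks of the top score class came closer, with 81.1% near a TSS against 84.7% of wide peaks in that class (intervals 78.9 to 83.2% and 80.8 to 88.1%). The relation did not hold at the largest widths, where 70.6% of the 51 peaks from 1500 bp to under 2000 bp and 68.8% of the 16 peaks of 2000 bp or more lay near a TSS. Midpoints of both kinds tended to lie downstream of the nearest TSS, in 63.6% of wide and 63.9% of narrow peaks within 1 kb.

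Around a start site inside the peak, the reach on either side adds up to the width that chose the peaks, so the following lengths only describe them. In the 384 wide peaks that held the TSSs of 1 gene, the median reach was 516 bp upstream and 669 bp downstream of the TSS, against 221 bp and 310 bp in 2955 narrow peaks. The summit sat off centre, at a median of 203 bp from the midpoint in wide peaks and 50 bp in narrow peaks. As a share of the width, the summit lay 32.8% of the way in from the nearer edge in wide peaks and 39.4% in narrow peaks.

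The CpG-rich sequence under wide peaks was longer, though hardly denser. A stretch counted as CpG-rich at a GC content of 50% or more and an observed number of CpGs no less than 0.6 times that expected from its C and G content (the CpG ratio). By this measure 94.5% of wide peaks (596 of 631, interval 92.4 to 96.1%) and 80.3% of narrow peaks (5045, interval 79.3 to 81.2%) were CpG-rich. In the top score class the shares were 97.0% and 90.0%. Over 300 bp at the summit, a window that does not grow with the peak, they were 91.9% and 80.7%. The median GC content was 64.9% and 64.7%, and the median CpG density at the summit was 10 and 9 per 100 bp. A wide peak held a median of 103 CpGs and a narrow peak 41, a count that grows with the width that chose the peaks. Per 100 bp of peak the medians were 8.62 and 8.22.

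To measure the length of CpG-rich sequence without using the peak's edges, the run of 200 bp windows around the summit that met both limits was followed in steps of 20 bp, within 6 kb. This run had a median of 1280 bp at wide peaks (quartiles 1020 and 1650 bp) and 880 bp at narrow peaks (quartiles 600 and 1220 bp). Peaks of similar score showed the same order, with medians of 1260 and 900 bp in the top score class, 1350 and 880 bp in the third, 1360 and 900 bp in the second and 1360 and 860 bp in the lowest. Across width classes the run rose at each step, from 780 bp at peaks under 400 bp to 2230 bp at the 16 peaks of 2000 bp or more. No such run was present at 686 narrow peaks (10.9%) and 20 wide peaks (3.17%). Where there was a run, 12.2% of narrow peaks (683 of 5599) and 39.4% of wide peaks (241 of 611) were at least as wide as it. The run of the AY036118 peak filled the 6 kb searched. These comparisons of run length were added after the data had been seen.

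**Figure D2:**
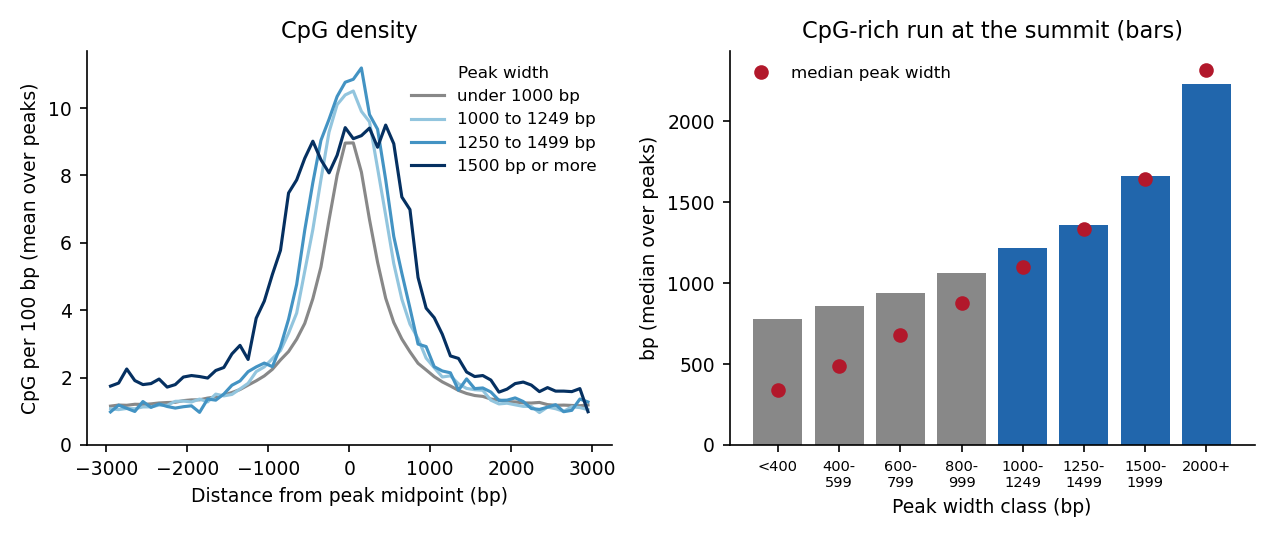
Left, the mean number of CpGs per 100 bp over peaks against distance from the peak midpoint in bp, for narrow peaks (grey) and 3 width classes of wide peaks (blues). Right, bars give the median length in bp of the CpG-rich run at the summit for 8 width classes (narrow grey, wide blue) and red points the median peak width. In the 100 bp to the right of the midpoint the mean density was 8.96 in narrow peaks and 10.4 in wide peaks, and the shoulders of the profile widened with peak width.

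A wide peak held the start sites of several genes more often. The TSSs of 2 or more genes lay inside 16.96% of wide peaks (107, interval 14.1 to 20.1%) and 5.68% of narrow peaks (357, interval 5.12 to 6.28%). A wider interval can cover more start sites simply by its length, so the genes were counted again in a fixed window of 1000 bp at each midpoint. The shares were then 15.8% (interval 13.1 to 18.9%) and 9.98% (interval 9.25 to 10.7%). With protein-coding genes alone in the fixed window they were 8.24% and 5.97%, and their intervals overlapped (6.22 to 10.7% and 5.39 to 6.58%). In the second score class the order turned, with 5.08% of 59 wide peaks and 9.82% of narrow peaks in the fixed window. Among the 107 wide peaks with several genes the outermost TSSs were a median of 395 bp apart, against 202 bp in the narrow ones. Starts on both strands were present in 101 wide peaks (16.01%) and 5.31% of narrow peaks. The distances and the strands were both taken inside the called peak, so a greater width can raise them. They were not measured in the fixed window.

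The starts of 3 genes lay inside 4 wide peaks. These were the peaks over Ifrd1, Gm7008 and Mir1938, over the chaperone gene Dnaja1 with Gm6297 and Mir207, over Cbln1 with C230036H16Rik and Gm2694, and over Polr2b, which encodes a core subunit of RNA polymerase II, with 2610024G14Rik and AC141469.5. Their widths ran from 1077 to 1289 bp, none far above the median of wide peaks. In 2 genes, separate wide peaks covered alternative starts. Lrrfip1 had peaks of 1311 and 1175 bp, and Brd2, which encodes a reader of acetylated histones, had peaks of 1398 and 1644 bp.

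**Figure D3:**
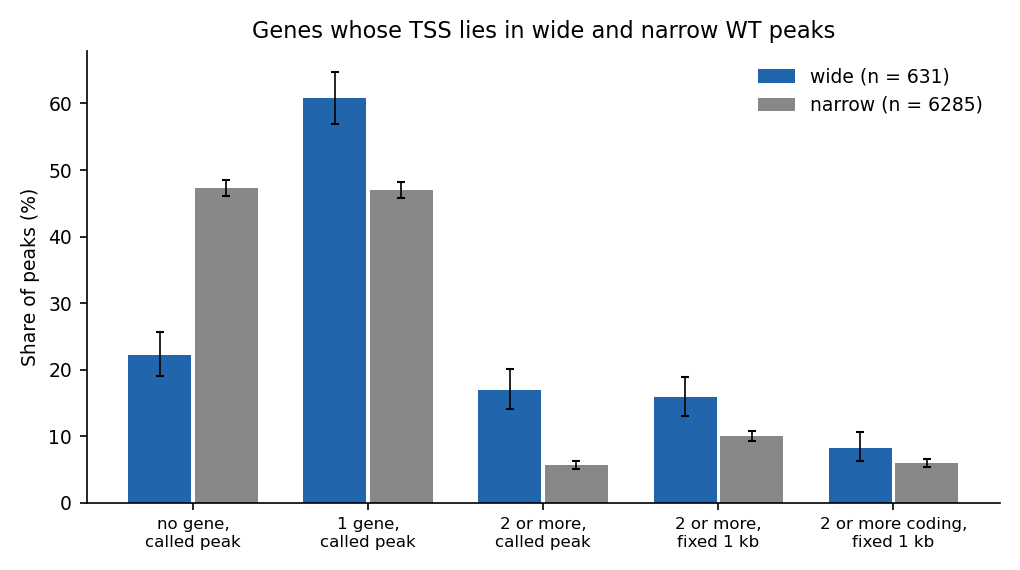
Bars give the share of peaks in % whose interval holds the TSSs of no gene, 1 gene, or 2 or more genes, for wide peaks (blue, n = 631) and narrow peaks (grey, n = 6285), and error bars are exact 95% binomial intervals. The 2 pairs of bars on the right count genes in a fixed window of 1 kb at the midpoint, where the excess of wide peaks with 2 or more genes was smaller (15.8% against 9.98%) than in the called peaks (16.96% against 5.68%).

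Many wide peaks without a start site lay on long coding exons. No annotated TSS lay inside 140 wide peaks (22.2%, interval 19 to 25.6%) and 2973 narrow peaks (47.3%). In the fixed window of 1000 bp, which does not depend on width, the shares without a TSS were closer, at 26.6% and 31.6%. A narrow peak can miss a nearby start site that a wide peak would cover, and 48.4% of the narrow against 27.1% of the wide peaks without a TSS had their midpoint within 1 kb of one. Of the peaks without a TSS, 88.6% of the wide and 66.7% of the narrow were CpG-rich. The summit was in coding sequence in 66 of the 140 wide peaks (47.1%, interval 38.7 to 55.8%) and in 765 of the 2973 narrow peaks (25.7%, interval 24.2 to 27.3%). The coding exon at the summit had a median length of 1152 bp (quartiles 946 and 1565 bp) in the wide group and 552 bp (quartiles 276 and 919 bp) in the narrow group. It reached 1000 bp in 65.2% of the former (43 of 66, interval 52.4 to 76.5%) and 22.5% of the latter (172 of 765, interval 19.6 to 25.6%). In the median wide peak of this kind, 93.0% of the bases lay in that exon. With peaks within 1 kb of a TSS left out, 87.3% of 102 wide and 51.4% of 1535 narrow peaks were CpG-rich, and the summit was in coding sequence in 51.0% and 24.2% (intervals 40.9 to 61.0% and 22.0 to 26.4%). The median exon was then 1171 bp in 52 wide peaks and 623 bp in 371 narrow peaks. The exon lengths were examined after the data had been seen, and the genes in the next paragraph were chosen then.

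Among peaks with no TSS inside, the widest on coding exons after Tchh and Cilp2 were at Trim67 (2002 bp), at Rimbp3 (1927 bp, of which 97.1% lay in an exon of 4818 bp) and at Zic5 (1824 bp on an exon of 1426 bp). Zic5 encodes a zinc finger factor of neural development. A peak of 1822 bp lay wholly within the 3174 bp exon of Zfp865, and one of 1638 bp lay 6560 bp from the start of Prdm13 on a coding exon of 1721 bp of that gene. At Npas3, a basic helix-loop-helix gene of brain development, the peak of 1578 bp (chr12:55168589-55170166) lay on an exon of 1334 bp and 135470 bp from the nearest TSS, that of Egln3. Cilp2, Prdm13 and Npas3 were 3 of the 5 widest peaks farther than 5 kb from a TSS, and the other 2 lay outside annotated genes. One of these, 2153 bp wide with a fold enrichment of 3.61, was 32761 bp from the microRNA gene AC141471.1, and the other, 1572 bp wide at 5.40, was 22820 bp from Ptma, which encodes prothymosin alpha. A peak of 1699 bp at Sfi1 differed, since its coding exon measured 179 bp and its CpG density was 0.942 per 100 bp.

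Wide peaks were found at genes of 7 of the 11 gene lists examined. Of 4201 genes with a TSS inside any WT peak, 599 had a wide one, a background of 14.3%. By annotation class the share was 13.5% for protein-coding genes (518 of 3826, interval 12.5 to 14.7%), 19.5% for lincRNAs (41 of 210, interval 14.4 to 25.5%) and 31.4% for pseudogenes (16 of 51, interval 19.11 to 45.9%). The interval of pseudogenes lay above the background, and that of lincRNAs began just above it. These genes were counted by a TSS inside the peak, so a wide peak can take in more of them by its length. The gene nearest the midpoint was a lincRNA in 4.44% of wide and 3.69% of narrow peaks. It was a pseudogene in 3.33% (interval 2.07 to 5.04%) and 1.94% (interval 1.61 to 2.31%). For both classes the intervals of wide and narrow peaks overlapped. None of the lists had an interval wholly above or below the background, and that of voltage-gated channel genes came nearest. The lists were written with results of these data known, so these counts describe the lists and support nothing further.

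Of 46 germ line genes with a peak, 9 had a wide one (19.6%, interval 9.36 to 33.9%), which spans the background. Under the widest of these were Boll, an RNA-binding regulator of meiosis (1581 bp, fold enrichment 12.0), D1Pas1, a testis RNA helicase (1364 bp, 10.9), and Taf7l, a germ cell subunit of the TFIID factor (1239 bp, 5.92). Dazl, an RNA-binding protein that germ cells need, had a peak of 1206 bp with a fold enrichment of 12.8, and Gm1564 one of 1202 bp with 8.04. The other 4 were Tdrkh, Sycp3, Sycp1 and Syce2, at 1016 to 1172 bp. Among germ line genes whose peak was in the top score class, 26.7% had a wide peak (8 of 30), against 27.9% of all genes in that class. Other lists held few genes there, with wide peaks at 3 of 5 PRC1.6, 4 of 6 voltage-gated channel and 4 of 8 developmental factor genes. The counts were 7 of 32 for Zfp, 1 of 4 for ribosomal protein and 1 of 6 for oxidative phosphorylation genes. They were 0 of 2 for pluripotency and epiblast genes and 0 of 1 for histone genes.

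Of the PRC1.6 complex, 3 of 6 genes with a peak had a wide one (interval 11.8 to 88.2%). They were Hdac2 (fold enrichment 22.5), E2f6 (13.2) and Mga (11.01), the last of which encodes a scaffold of the complex, at widths of 1332, 1226 and 1210 bp. Of the voltage-gated channel genes, 5 of 13 did (38.5%, interval 13.9 to 68.4%). Among these were the potassium channel genes Kcnf1 (1317 bp, fold enrichment 7.91), Kcna3 (1232 bp, 4.65) and Kcnc1 (1102 bp, 12.8), and the calcium channel gene Cacna1b (1163 bp, 5.70).

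Developmental transcription factor genes had wide peaks in 6 of 33 cases (18.2%, interval 6.98 to 35.5%). Among the widest were those at Sox11 (1989 bp, fold enrichment 4.19), which acts in neural progenitors, and at Nkx6-2 (1761 bp, 5.81), Sox30 (1255 bp, 13.0) and Sox21 (1179 bp, 2.82). Sox30, a testis factor, had a higher enrichment than the other 3 named here but not the greatest width. The share of these families depended on the assignment, as did that of all genes. With genes assigned by a TSS within 1 kb of the midpoint, 7 of 72 (9.72%) had a wide peak, against 10.9% of all genes (652 of 5964). Of Zfp genes, 8 of 68 had one (11.8%, interval 5.22 to 21.9%), led by Zfp503, Zfp623 (1312 bp), Zfp707 (1311 bp), Zfp655 (1157 bp) and Zfp367 (1082 bp).

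Counts of wide peaks at housekeeping and epiblast genes were small, and the interval of each of these lists includes the background. Wide peaks lay at 2 of 23 cytosolic ribosomal protein genes (Rpl37a and Rpl10a) and at 2 of 21 oxidative phosphorylation genes (Ndufa13 and Atp5g3), and both shares had intervals that span the background. None lay at a TSS of 12 replication-dependent histone genes (interval up to 26.5%), 5 pluripotency and epiblast genes (up to 52.2%), 3 H3K4 methylation genes (up to 70.8%) or 1 clustered protocadherin gene. A wide peak without a TSS nevertheless lay 1961 bp from the start of Pou5f1, which encodes the pluripotency factor OCT4 (chr17:35640505-35641538, fold enrichment 7.48), and another 10013 bp from that of Lefty1, a NODAL antagonist (chr1:182854599-182855681, 5.86). Both were CpG-poor, with 11 CpGs each and CpG ratios of 0.168 and 0.151, and were singled out after their values were seen.

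**Figure D4:**
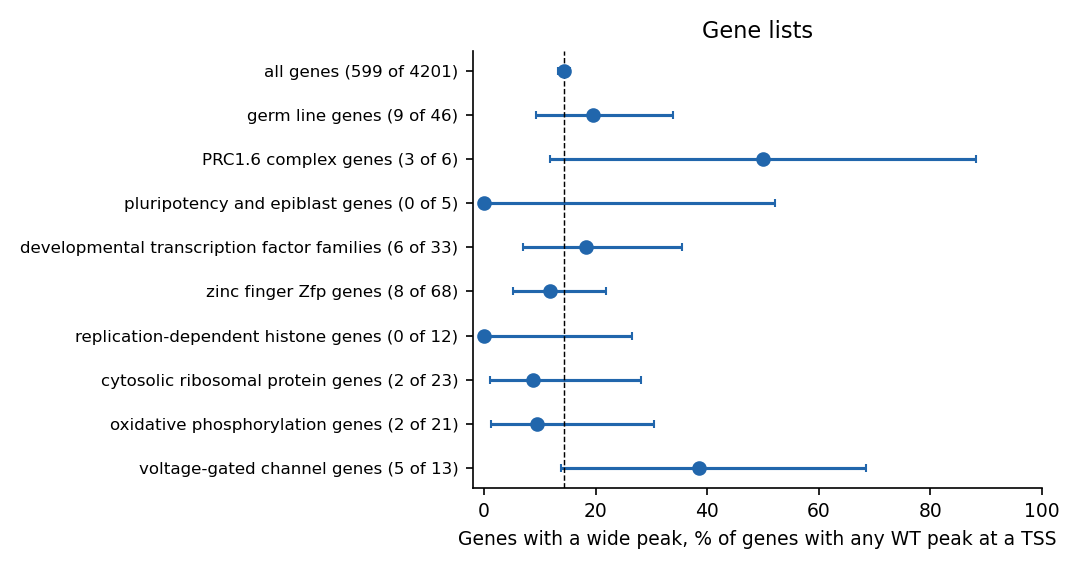
Points give, for each gene list with at least 5 members under a WT peak, the share in % of those members whose peak is wide, and bars are exact 95% binomial intervals. The dashed line is the share over all genes, 14.3% (599 of 4201). The interval of every list plotted crosses the line, and the bound nearest to it is the lower one of voltage-gated channel genes, 13.9%.

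Few wide peaks lay on the X chromosome, 3 of its 98 WT peaks (3.06%, interval 0.636 to 8.69%), against 631 of all 6916 WT peaks. The autosomes ranged from 6.10% to 12.7%, and the interval of the lowest (3.29 to 10.2%) overlapped that of X. The X and the autosomes differ in copy number in these male cells, and no comparison at equal copy number was possible. The X peaks were those at Taf7l (chrX:131009395-131010633), at 8030474K03Rik (chrX:98989191-98990274, fold enrichment 15.5) and 6274 bp from the pseudogene Gm14845 (chrX:98892885-98894042, 10.4).

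Short motifs were searched on both strands over 300 bp. The E-box CACGTG, which MYC, MAX and related factors bind, lay within the window at the summit in 22.7% of wide peaks (143 of 631, interval 19.5 to 26.1%), 20.4% of narrow peaks and 20.6% of all WT peaks. At the midpoint the share was 12.7% in wide peaks (interval 10.2 to 15.5%) and 19.9% in narrow peaks. The share in wide peaks thus depended on where the window stood, and summit and midpoint were a median of 203 bp apart there. In the top score class, 27.1% of wide and 30.1% of narrow peaks held it at the summit. The 300 bp nearest the summit held an E-box in 22.8% of wide and 20.7% of narrow peaks. The flanks 700 to 1000 bp away, which together are 600 bp long, held one in 11.7% and 9.01%, so both kinds of peak showed this pattern. The E-boxes nearest the summits shown above, at 15 bp for Hdac2 (chr10:36693960-36693985) and at 41 bp for Cilp2 (chr8:72406259-72406284), are given here with the E-box in capitals.
Hdac2 E-box: gtccccgcggCACGTGgcgggctcgg
Cilp2 E-box: ccgcgcgcgcCACGTGcagctgctcc

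The E2F6-type site TCCCGC was present in 40.6% of wide and 41.3% of narrow peaks at the summit (41.3% of all). The ETS site CCGGAAGT was present in 2.54% of wide peaks (interval 1.46 to 4.09%), 4.06% of narrow peaks (interval 3.58 to 4.57%) and 3.92% of all. The NRF1-type site GCGCATGCG was present in 3.17%, 2.50% and 2.56%, the YY1-type site AAGATGGC in 2.54%, 2.64% and 2.63%, and the CRE TGACGTCA in 1.27%, 1.45% and 1.43%. In each of these, the interval of wide peaks overlapped that of narrow peaks.

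The KO list held only 44 peaks on these chromosomes, against 6916 in the WT list, so overlap could only be rare. In all, 43 WT peaks overlapped a KO peak, and the overlaps of wide peaks were of 2 kinds. At least 1 bp was shared with a KO peak by 12 wide peaks (1.90%, interval 0.986 to 3.30%) and 31 narrow peaks (0.493%, interval 0.335 to 0.699%), against 0.622% of all WT peaks. A longer interval has more room to overlap. With at least 50% of both peaks shared, the counts were 6 wide peaks (0.951%) and 30 narrow peaks (0.477%), against 0.521% of all WT peaks. All 4 KO peaks of 1000 bp or more on these chromosomes overlapped a wide WT peak. Of the 12, 8 had WT fold enrichments under 3 (1.45 to 2.90) and 4 had values of 8.81 or more. No wide peak among the 12 fell between.

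The 4 enriched peaks were at CpG-rich promoters, and their KO counterparts were narrow. These were Igf2r (KO peak 303 bp wide with a fold enrichment of 6.35, WT 22.8), Hdac2 (330 bp, 6.07, WT 22.5), BC016423 (378 bp, 3.41, WT 12.9), and the promoter shared by Tdrkh and 1700040D17Rik (405 bp, 2.83, WT 8.81). The lists were called separately and on different numbers of samples, so these values stand side by side without a comparison.

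The 8 weak peaks had KO counterparts of 389 to 6011 bp. At AY036118 the KO peak was 6011 bp wide against 6035 bp in WT, with fold enrichments of 2.77 and 2.90. Another peak at Sfi1 had fold enrichments of 1.40 in KO and 2.57 in WT. The other 6, near Gm10722, Gm10720, Gm16869, Gm10715, Gm10800 and Gm10801, had GC contents of 34.01 to 35.3%. Except for AY036118, Gm10722, Gm10720, Hdac2 and Igf2r, these 12 were named after their values were seen.

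These 6 belonged to a class of 10 wide peaks with a GC content under 40%. The 10 GC contents were 34.01 to 37.4%, whereas the next wide peak stood at 50.4%, and their fold enrichments were 1.45 to 2.50. A KO peak overlapped 6 of the 10 and 6 of the remaining 621 wide peaks (0.966%, interval 0.355 to 2.09%). Narrow peaks held the same class, with 26 under 40% GC, of which 6 overlapped a KO peak, so that 12 of 36 such WT peaks did in all. The 10 wide ones lay in 3 places, with 7 between chr9:2999674 and chr9:3036609, 2 between chr2:98502054 and chr2:98507551, and 1 at chr11:3001112-3002454. Each peak was aligned to itself without gaps, at shifts from 50 bp up to 50% of its width, so narrow peaks were searched over shorter shifts. At 60% or more of bases, 6 of the 10 matched, as did none of the other 621 wide peaks. Among narrow peaks, 9 of the 26 under 40% GC matched, and so did 21 of the 6259 with more GC. The best shifts of the 6 wide peaks were 234, 469, 642 or 644 bp. Matches at a fixed shift are what tandem copies give, and 234 bp is the length of the unit of mouse major satellite DNA, the repeat of pericentromeres. The Gm10722 peak also spans 327 bases that the assembly leaves unresolved. Reads from repeated copies are hard to place uniquely, and the part of mapping in these peaks was not tested.

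The repeat is visible in the peak near Gm16869 (chr9:3018518-3019601), whose best shift was 234 bp. The 60 bp that matched best, at chr9:3018671-3018730, are given with the 60 bp that begin 234 bp further on, at chr9:3018905-3018964, and the capital marks the only base of the 60 that differs.
First copy: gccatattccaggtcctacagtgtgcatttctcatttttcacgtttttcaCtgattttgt
Second copy: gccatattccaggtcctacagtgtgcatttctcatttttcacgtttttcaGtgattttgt

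**Figure D5:**
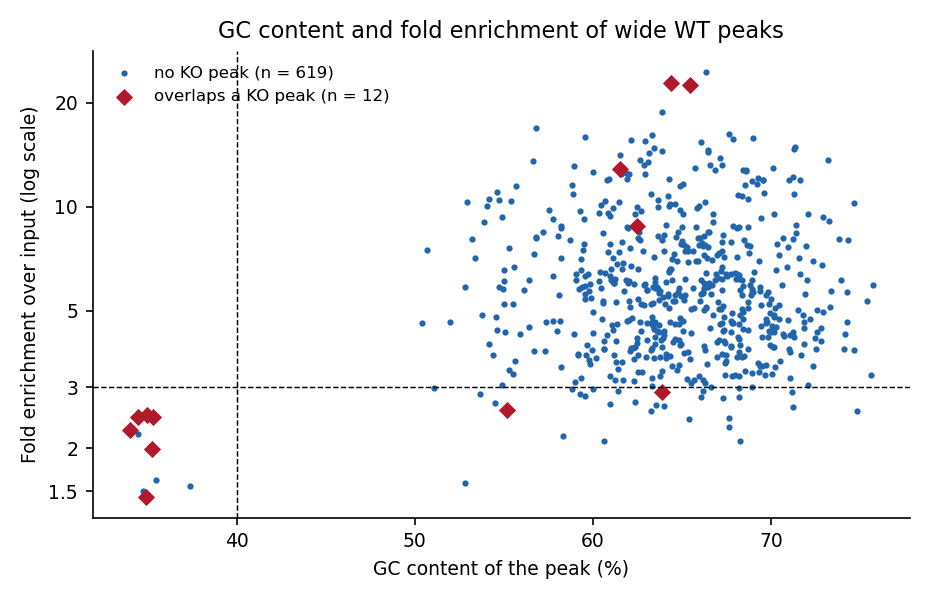
Each point is a wide WT peak, with the GC content of the peak in % on the x axis and its fold enrichment over input on the y axis (log scale). Red diamonds mark the 12 peaks that overlap a KO peak, blue points the other 619, and the dashed lines are at a GC content of 40% and a fold enrichment of 3. The 10 peaks under 40% GC sit apart at 1.45 to 2.50, 6 of them with a KO peak, and 4 peaks with a KO peak lie at 8.81 or more among the CpG-rich ones.

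The remaining 25 wide peaks that were not CpG-rich had GC contents from 50.4%. Among them were the promoter peaks of Sycp3, which encodes a protein of the meiotic chromosome axis (CpG ratio 0.580, fold enrichment 7.04), Dbp, a circadian transcription factor gene (0.552, 2.87), Cdh3, which encodes P-cadherin (0.592, 3.40), and Lrrfip1 (0.596, 5.19). Several missed the CpG limit narrowly, while a peak 1285 bp from the start of Coro1c had a CpG ratio of 0.177 and those near Pou5f1 and Lefty1 were lower still. These examples were chosen after their values were seen.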

How the data were processed

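KDM5C ChIP-Seq peak lists from XΔTsixY EpiLCs were analysed as deposited, 1 per genotype, with groups taken from sample titles. The authors mapped single-end reads to mm9 with Bowtie (1.1.2 in the submitters' processing notes, a later release in the study's methods), kept reads with a unique position, and ran MACS2 2.1.0.20140616 against input with filters by q-value and fold enrichment. The deposited score was 10 times the −log10 of the q-value, which was deposited beside the −log10 of the p-value, the ratio of immunoprecipitate to input (fold enrichment) and the summit. The largest q-value of a wide peak was 0.0795. Calling on pooled WT samples can widen WT peaks, and unique mapping removes reads from identical repeats. The labels describe EpiLC conversion alone, whereas the methods place day 2 after it, and sources differ on replicate numbers, so the stage is not settled here.

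Sequence was NCBIM37 (mm9) with GENCODE M1 (95414 transcripts of 37252 genes on these chromosomes), and coordinates count from 1. Overlap needed 1 bp. No test was made, as each genotype had 1 list. Feature calls were tested on simulated intervals. The members and gene lists were chosen with earlier results of these data known. Named peaks were the 10 widest, the 5 of highest fold enrichment, the 5 with most genes, those on X, the 5 widest that overlap a KO peak, the 5 widest beyond 5 kb from a TSS, up to 5 per gene list, and 3 on each side of the limit. Run length, self-alignment, coding exons, the GC limit of 40% and the fold split of 3 were added after seeing the data. Alternatives covered width, score, distance, CpG and overlap limits. Python 3.11.15, NumPy 2.4.6, pandas 2.3.3, SciPy 1.17.1 and matplotlib 3.10.9 were used. Some genes that the rule names are not reported here. The 17 WT and 3 KO peaks on contigs were left out.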

Additional observations from a re-analysis of the deposited data

How the results depend on the processing

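Of 72 alternative values over 27 results, 45 moved by less than counting error (shares) or 1.5 times (counts), and 27 moved further. Overlaps with the KO list were compared as counts, so a smaller set of peaks can move without a change in its share. The order of wide and narrow shares held in 26 of 31 pairs under an alternative and turned in 5. No paired analysis was possible because WT and KO are each represented by 1 list. At a width limit of 1500 bp, 67 peaks were wide and 2 of them overlapped a KO peak, while 70.1% of wide and 76.4% of narrow peaks lay near a TSS, the reverse of the order at 1000 bp. The narrow group was then 81.4% CpG-rich and 6.61% held 2 or more genes. The top score class gave 97.0% of wide peaks CpG-rich and, in narrow peaks, 81.1% near a TSS, 90.0% CpG-rich and 8.76% with 2 or more genes. Of its 1336 narrow peaks, 11 overlapped a KO peak (0.823%), against 0.493% of all narrow peaks. Shares near a TSS in wide and narrow peaks were 73.4% and 68.4% within 500 bp, 91.6% and 84.6% within 5 kb, and 80.0% and 72.5% for protein-coding TSSs. CpG-rich shares were 91.9% of wide peaks at the summit, and 70.8% of wide and 59.0% of narrow peaks at a ratio of 0.75 and GC of 55%. For 2 or more genes, protein-coding genes alone gave 8.72% and 3.52%, and the fixed window gave 9.98% of narrow peaks. KO overlaps of wide peaks numbered 6 at 50% of both (0.951%, against 0.477% of narrow peaks). They also numbered 6 without peaks of GC under 40% (0.966%, against 0.399%), an alternative added after seeing the data. Windows at the midpoint turned the order for 4 motifs, with 12.7% of wide and 19.9% of narrow peaks for the E-box, 4.75% and 4.58% for the ETS site, 42.8% and 41.5% for the E2F6-type site, and 2.85% and 2.66% for the YY1-type site. Genes assigned by midpoint gave 10.9% with a wide peak. The depth behind each list is unknown, and with 1 list a genotype no value has a replicate error.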

Other observations

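On unplaced and random contigs, outside the comparisons above, 1 of 17 WT peaks reached 1000 bp. It measured 1620 bp, scored 154 at 1.92-fold enrichment, and overlapped a KO peak. In the KO list, 1 of 3 contig peaks reached 1000 bp, at 1523 bp and a score of 134. Merging WT peaks within 1000 bp of each other gave 806 intervals of at least 1000 bp in place of 631. Another WT peak lay within 1 kb of 7.92% of wide peaks (50 of 631, interval 5.94 to 10.3%) and of 6.67% of narrow peaks (interval 6.06 to 7.31%).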
